A study of Mus musculus with 2 samples.

Results

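Nerve terminals release transmitter through a conserved set of proteins, and 38 of their genes were followed here in mouse hippocampal cultures with and without tetrodotoxin. The genes were chosen by name, with earlier results of these data known. A probe counted when both array files listed it under one of these names and did not mark it as a control. All 38 genes had probes, 61 in total, among 22145 named genes on the array. Cy3-labelled cRNA was read on 2 Agilent 8x60K arrays of 1 slide. The control group was 1 array from an untreated culture. The TTX group was 1 array from a culture kept for 2 days in tetrodotoxin (TTX), which blocks voltage-gated sodium channels and thereby action potentials. Both cultures came from ICR mouse embryos at embryonic day 16.5, grew in 5.5% serum, received 5 µM Ara-C against dividing glia at 2 days after plating, and were harvested at 12 days in vitro. The dose of TTX is given as 2 µM in the series' design text and as 2 mM in the sample's source name. These were mixed cultures, whether they share a dissection is not stated, and the labels do not say how many embryos or dishes went into each array.

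Synaptic vesicles are filled, tethered, docked and primed at the active zone, where scaffolds such as Bassoon, Piccolo, RIM and Munc13 hold them near calcium channels. Fusion is driven by the SNARE proteins synaptobrevin on the vesicle and syntaxin and SNAP-25 on the plasma membrane, is clamped and helped by complexins, and is triggered when synaptotagmins bind calcium. NSF and the SNAP adaptors then take the SNAREs apart, and dynamin and amphiphysin help to retrieve the membrane. In hippocampal neurons long silencing is known to change the strength of synapses on both sides of the cleft.

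There was 1 array per group and therefore no test between conditions, and having so few arrays sets the precision of every difference below. Each value is a quantile-normalized signal on a linear scale, each difference is TTX minus control on the log2 scale, and a gene takes its brightest probe among those well above background on both arrays, which is called measured. The error beside a difference is the scanner software's own error for the spots, which covers spotting and scanning and not differences between cultures. Because the RNA came from whole cultures, fewer cells of a type and less RNA per cell cannot be told apart. The TTX label went with low signals of activity-regulated genes: Arc had 4641 in control and 127 in TTX (-5.19), Npas4 differed by -3.53 and Fos by -2.61. Of 10 general neuron markers 10 were measured, with a summed signal of 205249 in control and 200278 in TTX and a median difference of 0.17. These markers were split, with 6 above 0 and 4 below. They ran from -1.20 for Nefm and -0.81 for Rbfox3 to 0.47 for Tubb3. At least 1.5-fold lower were 3 of them and 0 were higher by that rule, so the sum does not show that neuron content was level. Astrocyte markers (10 of 11 measured, with Gja1 not well above background) summed to 52894 and 63472, a median of 0.32. Aldoc alone gave 38706 and 44061 of these sums. Microglia markers (9 of 12 measured, with Cx3cr1, P2ry12 and Tmem119 not) summed to 19563 and 21781, a median of 0.36. Most of the microglia sums came from Itgam, at 18172 and 20323. Excitatory neuron markers (7 of 7) summed to 43510 and 48404 with a median of -0.22, and inhibitory neuron markers (7 of 7) to 62124 and 51948 with a median of -0.11. Oligodendrocyte-lineage markers (5 of 9 measured, with Olig2, Sox10, Mag and Pdgfra not) summed to 1629 and 1833. Fibroblast markers (5 of 6 measured, with Lum not) summed to 858 and 1069. Endothelial markers (3 of 5 measured, with Cldn5 and Tek not) summed to 2559 and 2174, of which Kdr alone gave 2445 and 2071. Each sum runs over the brightest probe of every listed marker, including those not measured, whereas each median covers measured markers only. The part of cell composition in the differences below was not tested.

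Most of the release machinery was slightly lower in the TTX culture, and few members differed much. Of the 38 genes 34 were measured, and 28 of these were below 0 at their brightest probe, a share of 82.4% against 48.8% of the 14015 measured genes of the array. The median difference was -0.21, from -1.10 for Sv2c to 0.79 for Rims3, where the median of all measured genes was 0.01. At a 2-fold size rule 1 member was lower (3.40% of all genes were) and 0 were higher (2.09% of all genes were). At 1.5-fold 5 members were lower, which is 14.7% beside 8.64% of all genes, and 1 was higher, which is 2.94% beside 7.66%. Taking the 95.0% interval of the scanner error around each difference, 9 members lay wholly below 0, where 13.9% of all genes did. Wholly above 0 lay 1 member, where 13.4% of all genes did. All these counts use the brightest probe of each gene. Syn3 and Pclo are among the 9, but other probes of theirs reached 0.89 and 0.40. Pclo is also among the 5 members at least 1.5-fold lower. The 2-fold count is thus near the background, while the share below 0 is not. The members were chosen with earlier results of these data known, so this contrast is a description and not an independent comparison. The share depends on how probes are combined. With the mean over all measured probes of a gene 24 of 34 were below 0, and 4 were at least 1.5-fold lower. The median of the 34 was then -0.15, beside 0.00 for all genes. With no filter on dim probes 31 of 38 were below 0, and the medians were -0.23 for members and 0.01 for all genes. The shares of all genes below 0 and past each size rule were counted in the main setting only.

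**Figure D1:**
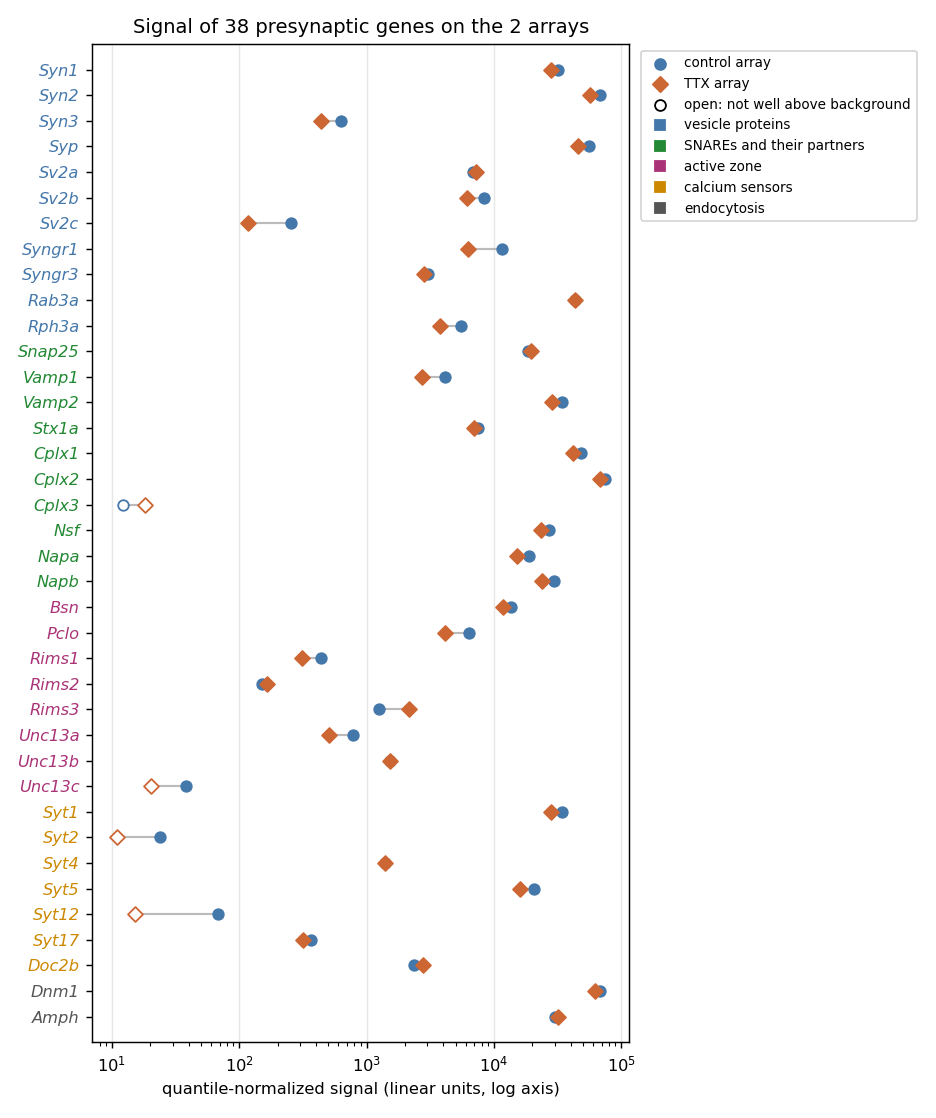
Quantile-normalized signal of each of the 38 genes on the control array (circles) and the TTX array (diamonds), on a log axis, with gene names coloured by role; open symbols mark signals not well above background. For most genes the TTX symbol lies a little to the left of the control symbol, Rims3 lies clearly to the right (1243 and 2150), and Cplx3, Unc13c, Syt2 and Syt12 lack a measured signal on at least 1 array. Signals of different genes come from different probes and are not comparable with each other.

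Vesicle proteins had a median of -0.27, with 10 of 11 below 0 and 2 at least 1.5-fold lower. Sv2c, which encodes a member of the SV2 family of vesicle glycoproteins that serve as receptors for botulinum neurotoxin A, was the only member past 2-fold. Its signal was 253 in control and 118 in TTX (-1.10, scanner error 0.21), 2.15-fold lower. This call was lost with normexp background correction (-0.80), and the stricter filter on dim probes left the gene out. The other measured probe of Sv2c agreed in direction and size, with 220.2 and 95.4 (-1.21). The remaining probe was above background in control only (30.3 against 20.3), a ratio of 1.49 to a TTX signal not well above background. The SV2 paralogs did not move alike: Sv2b was lower (8304 and 6112, -0.44), while Sv2a, the widely expressed form that binds the drug levetiracetam, had 6885 and 7275 (0.08, a sign that turned under 75th percentile scaling, without normalization and with spike-in scaling). The spread between Sv2c and Sv2a was 1.18.

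Syngr1, which encodes the tetraspan vesicle protein synaptogyrin 1, came next. Its signals were 11472 and 6296 (-0.87, error 0.20) at the brightest probe and 594 and 359 (-0.73) at the other, so both probes were lower in TTX. Without any normalization the processed signals were 11968 and 5990, just short of 2-fold, and with spike-in scaling the difference was -1.06, past 2-fold. Its relative Syngr3 had 3024 and 2803 (-0.11). The first 30 bases of the 60-base probes behind these findings are shown because the statements on Sv2c and Syngr1 rest on the agreement of separate probes (mm9 coordinates and 5′ to 3′ sequence as the array files give them; capitals mark runs of at least 9 purines here and in the probe sequences that follow).
Sv2c, brightest probe, chr13:96729701-96729761, minus strand: tctttgattaacataaaccattaatccact
Sv2c, other measured probe, chr13:96729454-96729513, minus strand: ctgtttctcatccctgggaaacaaatctgt
Sv2c, probe measured in control only, chr13:96745986-96746045, minus strand: aatccatgatgataggcatgctgtgcttgt
Syngr1, brightest probe, chr15:79949191-79949250, plus strand: agagatcctttgagagaatcctatttcatc
Syngr1, other probe, chr15:79941040-79941099, plus strand: atgtgtacttcccgcagatcagcagtgtca
The brightest and the other measured Sv2c probe lie side by side, whereas the Syngr1 probes do not. Which exon or untranslated region each probe lies in was not determined, since no annotation of mm9 was used here.

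Synapsins, the phosphoproteins that tether vesicles to the cytoskeleton and to each other, were lower at their brightest probes. Syn1 had 31753 and 27970 (-0.18), Syn2 67655 and 56885 (-0.25) and Syn3 627 and 441 (-0.51). For the last 2 the probes did not give 1 value. The second Syn2 probe had 3602 and 4369 (0.28). A second Syn3 probe had 88.8 and 164 (0.89), higher in TTX, and another was above background in TTX only (11.0 and 30.8, at least 1.93-fold higher); the remaining Syn3 probe was not well above background on either array. With values on both sides of 0, Syn3 has no single direction in these data. Its probes carry different transcript accessions in the array annotation, and the part of this in the split was not tested. Their first 30 bases are given because the Syn3 statement turns on them.
Syn3, brightest probe (-0.51), chr10:85518277-85518336, minus strand: gccaaggctgagacaatccgcaacctgagg
Syn3, second probe (0.89), chr10:85586568-85586627, minus strand: tccacatacatgtaaatgcatgtgcatacc
Syn3, probe measured in TTX only, chr10:85813890-85813949, minus strand: ccaatgcacttttcctgggacctggtttcc

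The other vesicle proteins spanned a similar range. Rph3a, which encodes rabphilin, a C2-domain effector of Rab3, had 5546 and 3773 (-0.56, error 0.20). Rab3a, the vesicle GTPase that rabphilin binds, was level, with 43717 and 43402 (-0.01, turning to 0.01 under normexp background correction). Syp, which encodes synaptophysin, the classic marker of synaptic vesicles, had 55497 and 45904 (-0.27), within the interval of its scanner error. The effector thus lay outside the interval of its scanner error and its GTPase within it. No interval was computed for the gap between the 2 genes.

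SNAREs and their partners had a median of -0.21, with 8 of 9 measured members below 0 and 1 at least 1.5-fold lower. That member was Vamp1, the synaptobrevin that predominates in brainstem and spinal cord, with 4105 and 2712 (-0.60, error 0.20). Its forebrain paralog Vamp2 had 34125 and 28728 (-0.25). The plasma membrane SNAREs differed little: Stx1a had 7434 and 6931 (-0.10), and Snap25 had 18686 and 19642 (0.07, a sign that turned under 75th percentile scaling, without normalization and with spike-in scaling). Each of Vamp1 and Vamp2 had a further probe that was not well above background on either array and gives no value.

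Complexins bind the assembled SNARE complex. Cplx1 had 47917 and 41422 (-0.21). Cplx2 had 73994 and 67639 (-0.13) at its brightest probe. Cplx3, known mainly from ribbon synapses of the retina, was not well above background on either array (12.3 and 18.3) and has no difference. With the mean over all 5 probes listed under Cplx2 the difference was 0.05, but 2 of these carry mm9 coordinates away from the others, at chr13:108816800-108816859 and chr5:112438094-112438174. All further probes consist of at least 90% A or G, against 55.0% for the brightest. Whether they report Cplx2 was not tested, so the brightest probe is the value used here and no direction is read from the mean.

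The machinery that takes SNARE complexes apart had values from -0.30 to -0.03 over its probes. The ATPase Nsf had 27174 and 23494 (-0.21) and, at a dimmer probe, 496 and 487 (-0.03). Napa, which encodes alpha-SNAP, had 18702 and 15204 (-0.30) and 767 and 688 (-0.16). Napb, the brain form beta-SNAP, had 29466 and 23973 (-0.30), with -0.29 at its other probe. The adaptors Napa and Napb thus gave the same difference to 2 decimals at their brightest probes, and neither passed the interval of the scanner error.

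**Figure D2:**
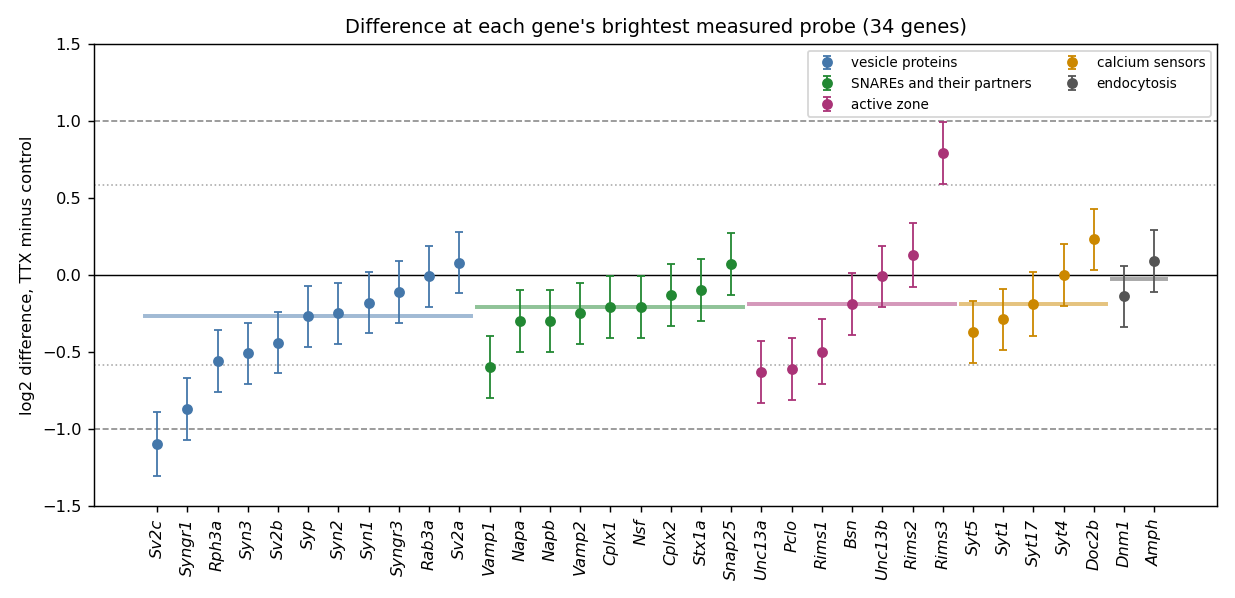
Log2 difference (TTX minus control) of the 34 measured genes at their brightest probe, grouped by role; bars are the scanner software's error, wide lines are the group medians (-0.27, -0.21, -0.19, -0.19 and -0.03), and dashed and dotted lines mark 2-fold and 1.5-fold. Sv2c lies below the lower dashed line, Rims3 is the only gene above the upper dotted line, and most of the others lie between 0 and the lower dotted line.

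Active zone genes were the most divided group. Their median was -0.19, with 5 of 7 measured members below 0, 2 at least 1.5-fold lower and 1 at least 1.5-fold higher. With probes averaged the median was -0.01. Rims3, which encodes a short RIM that keeps a C2 domain and lacks the Rab3- and Munc13-binding region of the long RIMs, was the highest of all members at 1243 and 2150 (0.79, error 0.20). It stayed between 0.64 and 0.79 under every scaling, background correction, filter and probe rule run, but rests on 1 probe, since its other probe was not well above background on either array. The long RIMs did not follow it: Rims1 had 438 and 310.3 (-0.50) and at its other probe 250.2 and 194 (-0.36), and Rims2 had 152 and 166 (0.13). The distance between Rims3 and Rims1 was 1.29, the widest within any of the families compared.

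Munc13 proteins open syntaxin and make vesicles ready for release. Unc13a, the main form at forebrain glutamatergic synapses, was lower at both probes by the same amount, with 787 and 509 (-0.63) and 315 and 204 (-0.63). Unc13b was level at 1523 and 1518 (-0.01). Unc13c, known mainly from the cerebellum, was well above background in control only (38.2 against 20.2). The ratio of 1.89 is to a TTX signal not well above background, so no difference is given. Of the paralogs measured on both arrays, Unc13a therefore lay 0.62 below Unc13b. The probes with the clearest opposite values in this group are the following.
Unc13a, brightest probe (-0.63), chr8:74148542-74148601, minus strand: acatatgagcagccaagggacacctgagat
Unc13a, other probe (-0.63), chr8:74154416-74154475, minus strand: agttcgccaccaaatccaaaaacaacagct
Rims3, measured probe (0.79), chr4:120569114-120569173, plus strand: cttcacatggcttctgcatgtacagtattt

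The large scaffold Bassoon (Bsn) had 13522 and 11887 (-0.19). Its relative Piccolo (Pclo) had 4 measured probes that split. The brightest gave 6324 and 4149 (-0.61, error 0.20), whereas the others gave 2101 and 2326 (0.15), 416 and 550.4 (0.40) and 171 and 182 (0.09). The lower value is thus confined to 1 of its 4 probes, and the mean over them was 0.01. Along the plus strand of mm9 chromosome 5 the lower probe is second, between 2 probes above 0 and with the remaining one further on, so the split does not follow position from one end of the gene to the other. The lower probe shares its transcript accession in the array annotation with the first one and not with the last 2. Pclo, in order along the chromosome, is shown because no single value describes it.
Pclo, first probe (0.09), chr5:14682209-14682268: aacccctccctgatgacataagtccacaga
Pclo, second and brightest probe (-0.61), chr5:14795934-14795993: gtatcagctgtgttgggcatgtgaatatcc
Pclo, next probe (0.40), chr5:14855569-14855628: aagctagcactGAAAAAGGAAAtgaaaacc
Pclo, last probe (0.15), chr5:14863399-14863458: gtaaactgtgccgtataaaggttgttgtac

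**Figure D3:**
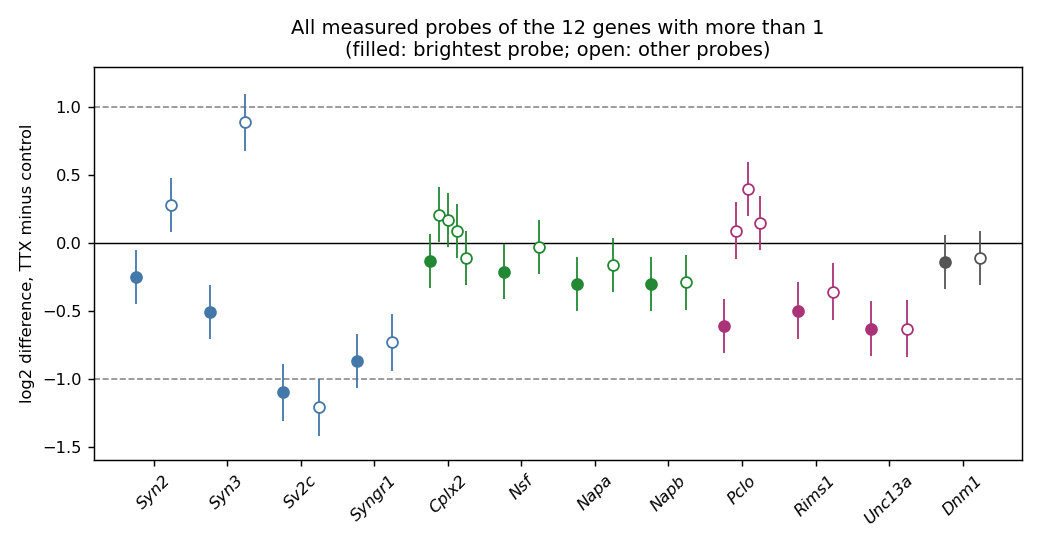
Log2 difference (TTX minus control) of every measured probe of the 12 genes with more than 1 measured probe; filled points are the brightest probe, open points the others, and bars the scanner software's error. Sv2c, Syngr1, Rims1 and Unc13a have all points below 0, while Syn2, Syn3, Cplx2 and Pclo have points on both sides of it.

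Over the 12 members with more than 1 measured probe the median range between probes was 0.14, against 0.20 for the 4124 such genes of the array. In 8 of these 12 the probes lay within 0.3 of each other. In 4 of them, Syn2, Syn3, Cplx2 and Pclo, the probes gave both signs, and for Cplx2 this rests on the further probes whose identity was not tested. The members whose lower value was seen at every measured probe were Sv2c, Syngr1, Rims1, Unc13a, Nsf, Napa, Napb and Dnm1.

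Calcium sensors had a median of -0.19, with 4 of 5 measured members below 0 (Syt4 among them only before rounding) and none at 1.5-fold in either direction. Syt1, the sensor of fast synchronous release in forebrain neurons, had 34523 and 28177 (-0.29). Syt5 had 20590 and 15940 (-0.37), the lowest measured value of the group. Doc2b, a cytosolic high-affinity calcium sensor linked to spontaneous and asynchronous release, had 2372 and 2785 (0.23). Syt4, a synaptotagmin whose first C2 domain binds calcium poorly, was level at 1387 and 1386 (0.00). Syt17, which lacks the transmembrane segment of other synaptotagmins, had 365 and 319 (-0.19); the mm9 coordinates of its 60-base probe span 26032 bases, so the probe crosses at least 1 intron. Each of these 5 differences was within the interval of its scanner error.

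Among the calcium sensors 2 further genes were well above background in control only, so that they have bounds and no difference. Syt12, a synaptotagmin without calcium-binding residues, had 68.1 in control and 15.3 in TTX, at least 3.47-fold lower, the largest bound among the members. Syt2, the fast sensor of hindbrain and spinal synapses, had 23.8 and 10.9, a bound of 1.21-fold lower. Neither bound carries an error. That of Syt2 (-0.28 in log2) is smaller in size than 0.305, the pooled SD of spot differences in the dimmest 20% of measured probes, so no direction is read from it. The Syt12 spot lay in row 333 of the 384 rows of the array. Among measured spots in the dimmest 20%, those in rows 289 to 384 were at least 2-fold lower in TTX in 5.17% of cases and those in rows 1 to 96 in 2.35%, so dim spots near Syt12 leaned lower; the part of position in its value was not tested. The probe is shown because Syt12 has no other.
Syt12, chr19:4446641-4446700, minus strand: gaaatggtgttcctaagcaaagggcttggt

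Endocytosis was represented by 2 genes and was close to level. Dnm1, the neuronal dynamin that cuts vesicles from the membrane, had 67955 and 61702 (-0.14) and at its other probe 2957 and 2742 (-0.11). Amph, which encodes amphiphysin, a partner that brings dynamin to curved membrane, had 30194 and 32066 (0.09, or -0.03 with spike-in scaling). Neither difference exceeded the error of its spot.

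The members were set beside genes with related tasks and beside genes of like brightness. Of 22 members in the brightest 20% of measured genes 19 were below 0 with a median of -0.23, and over all 2803 genes of that range 51.2% were below 0 with a median of -0.01. A further 74 presynaptic genes outside the member list (other synaptotagmins, syntaxins, liprins, Rab3 forms, transporters, clathrin adaptors) gave 72 measured genes with a median of -0.11 and 41 below 0. Of these 0 were at least 2-fold lower and 1 higher, where 3.40% and 2.09% of all genes were. At 1.5-fold 6 were lower (8.33%, beside 8.64% of all genes) and 4 higher (5.56%, beside 7.66%). The gene past 2-fold was Rab3b, a paralog of Rab3a, with 1281 in control and 4706 in TTX (1.88), while Rab3a itself was level. The next highest were the gamma-synuclein gene Sncg (88.4 and 159.5, 0.85) and the vesicular glutamate transporter Slc17a6 (152 and 254, 0.74). The lowest were Stxbp5l, which encodes tomosyn-2, an inhibitor of SNARE assembly (2276 and 1178, -0.95), the calcium sensor Doc2a (930.5 and 516, -0.85) and the lipid kinase Pip5k1c (219 and 123, -0.83). Doc2a and Doc2b, close relatives, thus lay on opposite sides of 0. Among 25 postsynaptic scaffold genes 24 were measured, with 16 below 0, a median of -0.14 and none past 2-fold, so a small lower median was not restricted to the presynaptic side. Differences between these lists were not tested.

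**Figure D4:**
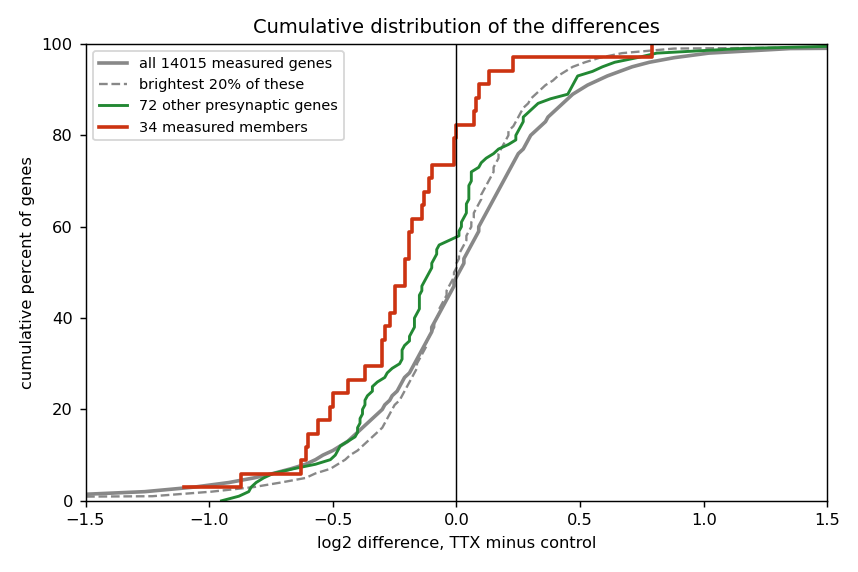
Cumulative percent of genes (y axis) at or below each log2 difference, TTX minus control (x axis, cropped at 1.5 on either side), for the 34 measured members, 72 other presynaptic genes, all 14015 measured genes and the brightest 20% of these. The members' curve reaches 82.4% at 0, while the curve of all genes passes 48.8% there.

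Promoters were read for motifs of factors that respond to activity, since several members were lower together. RefSeq promoters (GRCm38.p6, from 250 bases before to 50 after the start) were held for 28 of the 38 genes, 37 promoters of 300 bases in all. The full cAMP response element, TGACGTCA, was in 2 of them (5.41%), those of Syn1 and Napa, against 1.79% of all 32851 promoters. Its core TGACG, which the full element contains, was in 7 (18.9%, against 20.8%), and Unc13a had 3 copies. The EGR motif GCGGGGGCG was in 3 (8.11%, against 2.91%), those of Cplx1, Syn2 and Syngr1. The E-box CACGTG was in 5 (13.5%, against 7.15%). Both strands were searched, and such matches describe letters only. With few promoters these shares rest on 2 to 7 promoters with a match each. The promoters of Syngr1 and Sv2c are printed because these genes had the lowest measured values, and that of Syn1 because it holds the full element; capitals mark TGACGTCA or GCGGGGGCG, and each run is the 250 bases before the start on the gene's strand.
Syngr1, chr15:80091084-80091333, plus strand: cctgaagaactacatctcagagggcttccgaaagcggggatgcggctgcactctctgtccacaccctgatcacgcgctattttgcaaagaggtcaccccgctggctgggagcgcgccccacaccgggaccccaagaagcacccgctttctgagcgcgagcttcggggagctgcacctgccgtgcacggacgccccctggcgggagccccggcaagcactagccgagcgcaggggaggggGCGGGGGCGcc
Sv2c, chr13:96132578-96132827, minus strand: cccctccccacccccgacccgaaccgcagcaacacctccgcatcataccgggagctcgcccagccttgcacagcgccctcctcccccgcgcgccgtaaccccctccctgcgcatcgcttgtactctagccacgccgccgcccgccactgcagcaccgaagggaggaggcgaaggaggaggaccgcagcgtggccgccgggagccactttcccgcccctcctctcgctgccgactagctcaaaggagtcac
Syn1, chrX:20920919-20921168, minus strand: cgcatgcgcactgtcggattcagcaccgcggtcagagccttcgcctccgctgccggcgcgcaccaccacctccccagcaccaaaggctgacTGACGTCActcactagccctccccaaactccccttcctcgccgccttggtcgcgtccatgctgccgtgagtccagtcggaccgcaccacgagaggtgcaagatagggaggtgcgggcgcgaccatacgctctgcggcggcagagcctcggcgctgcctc
The Syngr1 match starts 11 bases before the start and the Syn1 match 159 bases before it. Members with a match to TGACGTCA or GCGGGGGCG were not alike in their differences. Syn1 was at -0.18, Napa at -0.30, Syngr1 at -0.87, Cplx1 at -0.21 and Syn2 at -0.25 (0.28 at its second probe). Members matching only TGACG or the E-box are not listed here. Sv2c, the lowest member, has no match to the 4 motifs in its window.

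**Figure D5:**
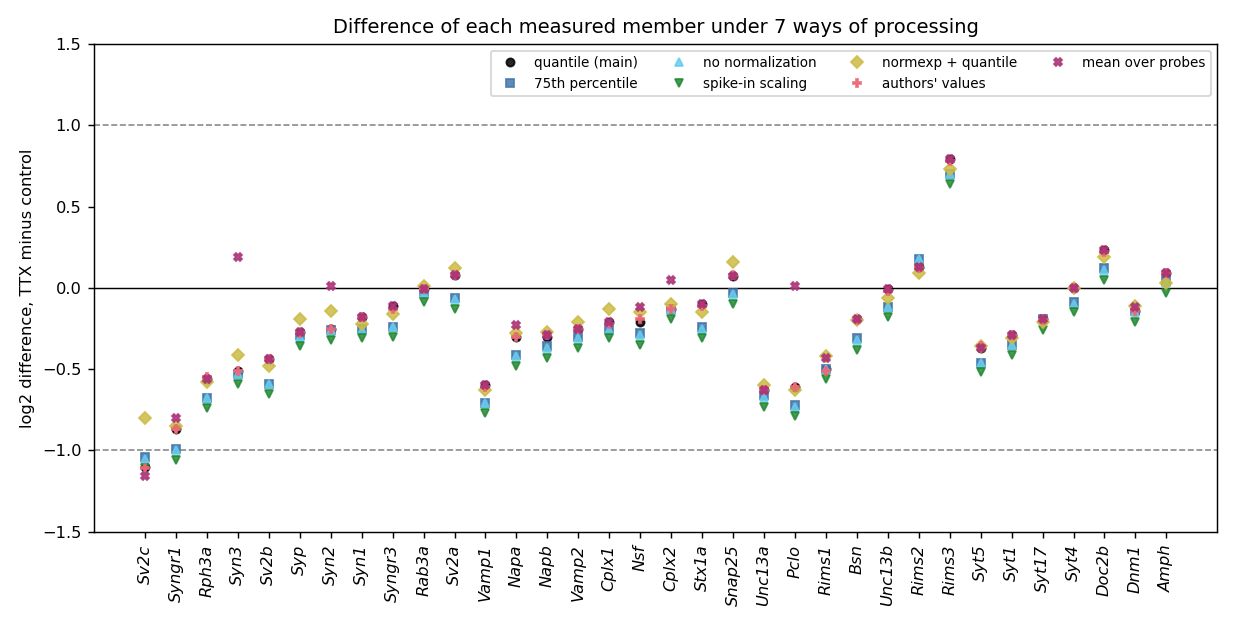
Log2 difference (TTX minus control) of each measured member under quantile normalization and 6 alternatives, grouped by role, with dashed lines at 2-fold. Spike-in scaling gave values below those of quantile normalization for nearly all members, Sv2c moved to -0.80 with normexp background correction, and averaging over probes moved Syn3, Syn2, Cplx2 and Pclo to 0.19, 0.01, 0.05 and 0.01.

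The median of all measured genes was 0.01 with quantile normalization and -0.09 when the 7 spike-in probes set the scale. The median of the members was -0.21 and -0.34 under these settings, and members minus all genes came to -0.22 and -0.24. The number of members below 0 was 28 with quantile normalization, 30 with 75th percentile scaling, 31 with spike-in scaling and 27 with normexp. In the same order the median of all genes was 0.01, -0.03, -0.09 and 0.01, so these counts do not share a common centre. Sv2c passed 2-fold with each way of scaling the arrays and in the authors' deposited values, and came short of it with normexp (-0.80). Rims3 was the only member at least 1.5-fold higher under each of these settings.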

How the data were processed

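Agilent Feature Extraction files of 2 arrays (1 control, 1 TTX) were used; the authors deposited linear spot intensity as processed signal, with spatial and multiplicative detrending on and local background subtraction off, per the file headers. Agilent Feature Extraction is version 9.5.1.1 per the submitters' processing notes but 10.7.1.1 per the file headers; probe coordinates are mm9. A table of the authors' deposited intensity values, quantile normalized per the series' design text, served as an alternative; its differences correlated with those used here at 0.9999 across measured probes. Non-control spots not marked as outliers on either array were quantile normalized, put on a log2 scale and averaged per probe (Python 3.11.15, numpy 2.4.6, pandas 2.3.3). A probe was measured when a share of 0.5 or more of its spots passed the scanner's well-above-background mark on each array (54.2% of spots on control, 52.2% on TTX). Members were matched by array gene name and all other genes by RefSeq symbol (30847 of 55681 probes had one). Bounds were taken against the higher of the dim signal and the lowest well-above-background signal (16.0 on control, 19.7 on TTX). For Unc13c and the Sv2c probe measured in control only the dim signal was the higher, so their values are plain ratios and not bounds. The naming rule was all 38 members, and of the other presynaptic genes those past 2-fold plus the 3 lowest and highest. Members and lists were chosen with earlier results of these data known. Normexp used limma 3.58.1 with an offset of 50. The steps were tested on simulated data. Pooled SD of spot differences was 0.148 over 261 probes printed at least 10 times, 0.305 in the dimmest 20% and 0.0625 in the brightest 20%. Some probe sequences are not reported here.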

Additional observations from a re-analysis of the deposited data

How the results depend on the processing

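Of 301 values of single members under the alternatives 7 moved by more than the scanner error: Sv2a, Sv2b and Stx1a with spike-in scaling (-0.13, -0.65 and -0.31), Sv2c with normexp (-0.80), and Syn2, Syn3 and Pclo with the mean over probes (0.01, 0.19 and 0.01). The direction of Sv2c, the member past 2-fold, was lower under every alternative run that measured it. The count of members at least 2-fold lower, 1 in the main setting, was 2 with spike-in scaling, 0 with normexp, 3 with no filter on dim probes, 0 with the stricter filter, which leaves Sv2c out, and 0 with a 3-fold rule. The count at least 1.5-fold lower, 5 in the main setting, was 8 with spike-in scaling and 8 with no filter. The active zone median, -0.19, was -0.38 with spike-in scaling, -0.34 with no filter and -0.01 with the mean over probes. The other presynaptic genes at least 2-fold lower, 0 in the main setting, numbered 1 with 75th percentile scaling, 1 with no normalization, 1 with spike-in scaling and 1 with no filter. The median of the members lay between -0.34 and -0.15. Apart from settings whose construction removes or adds probes, the cause was not tested. No paired analysis was possible because each group has 1 array. Depth here means signal over background: Cplx3, Unc13c, Syt2 and Syt12 were too dim for a difference.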
